A study of Homo sapiens with 6 samples.

Results

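NDRG1 and 9 other genes that cells switch on when oxygen is short were followed in RNA of mitochondria that came from HepG2, a line of human liver cancer cells, after 48 h with GenX, a short-chain perfluoroalkyl ether acid. The 10 genes were NDRG1, VEGFA, ADM, BNIP3, BNIP3L, EGLN3, PDK1, CA9, SLC2A1 and HK2, found by matching the gene identifiers of the count tables to these symbols, among 57500 genes in all. NDRG1 was chosen by its counts at 10 µM against control, which were low, so its values in that comparison are a description, and the other 9 are textbook targets of the hypoxia response that were picked with results of these data known. The groups were control cells given the solvent DMSO alone (0 µM), cells given 10 µM GenX and cells given 100 µM GenX, all wild-type HepG2 of batch 1, with 2 libraries per group and 6 in all. A kit was used to isolate the mitochondria, and ribosomal RNA was depleted from their total RNA before stranded libraries were made. The labels did not say whether the 2 libraries of a group came from separate cultures, so p-values measure only how far these samples differ from each other, and that spread may be technical.

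Cells sense oxygen through prolyl hydroxylases of the EGLN family, which mark the α subunits of hypoxia-inducible factor (HIF) for destruction while oxygen is present. When oxygen falls, HIF persists, binds the DNA core ACGTG or GCGTG near its target genes and raises their transcription, so that the cell takes up more glucose, sends less pyruvate into mitochondria, removes mitochondria and calls for blood vessels. All 10 genes lie in the nuclear genome and their messages are translated in the cytosol. The proteins of BNIP3, BNIP3L and HK2 act at the outer mitochondrial membrane and that of PDK1 in the matrix.

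Promoters of 4 of the genes are shown because they carry, or lack, this core. Each window runs from 250 bases before to 50 bases after a RefSeq gene start (GRCh38.p14), read 5′ to 3′ on the gene's strand, in lower case with each ACGTG or GCGTG on either strand in capitals. On the strand opposite to the gene, these read CACGT and CACGC. CA9 (chr9:35673678-35673977, plus strand) encodes a carbonic anhydrase that exports acid from hypoxic cells, and BNIP3 (chr10:131981874-131982173, minus strand) a receptor that delivers mitochondria to autophagy. The PDK1 window (chr2:172555840-172556139, plus strand) is the second of its 2 RefSeq starts (the first holds no match), and the EGLN3 window (chr14:33951025-33951324, minus strand) belongs to the hydroxylase that HIF induces as its own brake.
CA9: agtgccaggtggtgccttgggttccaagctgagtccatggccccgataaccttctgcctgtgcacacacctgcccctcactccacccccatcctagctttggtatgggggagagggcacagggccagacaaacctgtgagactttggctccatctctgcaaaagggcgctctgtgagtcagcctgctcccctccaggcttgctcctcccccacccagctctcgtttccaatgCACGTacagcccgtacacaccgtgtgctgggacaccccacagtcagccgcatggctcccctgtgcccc
BNIP3: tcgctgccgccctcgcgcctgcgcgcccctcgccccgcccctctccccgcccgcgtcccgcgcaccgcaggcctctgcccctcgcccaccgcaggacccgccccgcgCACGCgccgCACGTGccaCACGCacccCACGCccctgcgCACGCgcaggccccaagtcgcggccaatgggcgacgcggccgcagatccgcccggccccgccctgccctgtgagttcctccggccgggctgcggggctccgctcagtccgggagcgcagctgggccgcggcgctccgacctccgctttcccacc
PDK1: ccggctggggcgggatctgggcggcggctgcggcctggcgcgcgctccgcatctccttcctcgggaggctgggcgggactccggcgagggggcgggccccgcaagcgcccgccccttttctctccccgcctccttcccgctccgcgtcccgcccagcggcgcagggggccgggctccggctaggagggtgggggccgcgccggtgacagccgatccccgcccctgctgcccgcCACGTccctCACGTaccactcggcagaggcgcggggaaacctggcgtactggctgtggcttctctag
EGLN3: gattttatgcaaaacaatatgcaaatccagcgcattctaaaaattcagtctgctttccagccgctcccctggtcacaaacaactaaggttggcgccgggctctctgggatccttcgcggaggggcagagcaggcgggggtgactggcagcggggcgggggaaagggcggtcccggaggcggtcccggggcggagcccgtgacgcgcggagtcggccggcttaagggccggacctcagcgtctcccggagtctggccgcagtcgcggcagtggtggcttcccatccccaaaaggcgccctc
The CA9 core began 18 bases before the start, the PDK1 cores 17 and 8 bases before it, and BNIP3 held 6 matches between 143 and 104 bases before it, of which an ACGTG on each strand overlapped in a palindrome. The EGLN3 window held none, which says only that these letters are absent from these 300 bases. RefSeq windows were found for 7 of the 10 genes, 9 windows in all. ACGTG was present in 5 of the 9, against 21.4% of all 35116 windows of this length, and ACGTG or GCGTG in 7 of the 9, against 48.4%. A match is a description of the sequence, not a measured binding site.

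Depth set what could be seen. Counts on genes not encoded by mitochondrial DNA (mtDNA), called nuclear counts here, numbered 230210 and 54502 under DMSO, 24505 and 11406 under 10 µM GenX, and 2064527 and 1293961 under 100 µM GenX. Levels below are in nuclear CPM, which is the usual CPM scale taken over nuclear counts alone, so that it leaves out mtDNA transcripts, which took between 3.32% and 61.1% of all counts. A gene without a count could still have reached 122 and 263 nuclear CPM in the 10 µM libraries, the level of 3 counts. Exact 95% binomial intervals are given for single libraries, and they cover counting error only. In bulk RNA, fewer cells with a transcript and less of it per cell cannot be told apart. The long RNA MALAT1, which stays in the nucleus, was also lowest at 10 µM: it took 14.1% and 5.15% of nuclear counts under DMSO, 0.0694% and 0.114% under 10 µM GenX, and 2.99% and 2.69% under 100 µM GenX. Its 100 µM libraries lay below both controls, unlike those of most of the 10 genes. Whether the amount of nuclear and cytosolic RNA in the mitochondrial preparations had a part in the results below was not tested.

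The HepG2 label was checked on 12 hepatocyte and keratin markers, which together took 0.869% and 2.15% of nuclear counts under DMSO, 0.0857% and 0.0614% under 10 µM GenX, and 1.33% and 1.26% under 100 µM GenX. AFP, TTR and FGB had 0 counts in both controls, and AFP also at 10 µM. Fibroblast markers, 3 genes of which COL1A1 gave most counts, had sums of 0.0222% and 0.0147% with DMSO and 0.00334% and 0.00340% with 100 µM GenX, and they were highest with 10 µM GenX (0.0367% and 0.0526%, from 9 and 6 counts). Leukocyte and endothelial markers, 3 of each, took at most 0.0351% in any library, and PTPRC and CDH5 had 0 counts in all 6. The hepatocyte marker sum was thus lowest in the libraries in which most of the 10 genes were lowest, and its part in the result was not tested. Of the 12 hepatocyte and keratin markers, 8 were tested. In edgeR's quasi-likelihood test 2 were lower at 10 µM than in control, APOA2 (-6.30 ± 0.82, SE, adjusted p = 0.0111) and KRT18 (-7.11 ± 1.24, adjusted p = 0.0410), beside 0.377% of all tested genes. At 10 µM APOA2 had 4 and 2 counts and KRT18 1 and 1. KRT18 passed the filter on low counts, described below, only with libraries outside the 10 µM group, so its direction was partly set in advance.

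NDRG1, a cytosolic protein induced by hypoxia and other cell stress and known as a suppressor of metastasis, was the most abundant of the 10 by counts in each library with DMSO or 100 µM GenX. It held 1569 and 921 counts under DMSO, 4 and 6 under 10 µM GenX, and 19679 and 18872 under 100 µM GenX. As a share of nuclear counts this was 0.682% (95% interval 0.648 to 0.716) and 1.69% (1.58 to 1.80) in the controls. Under 10 µM GenX it was 0.0163% (0.00445 to 0.0418) for replicate 1 and 0.0526% (0.0193 to 0.114) for replicate 2. Under 100 µM GenX it was 0.953% (0.940 to 0.967) for replicate 1 and 1.46% (1.44 to 1.48) for replicate 2. Both 10 µM libraries lay below all others, while the 100 µM libraries lay between the 2 controls. In control 2 and in both 100 µM libraries, NDRG1 took more counts than any other of 19724 nuclear protein-coding genes, and in control 1 it ranked 10th. Ranked per kilobase of exon it stood 27th and 16th under DMSO, 1986th and 865th under 10 µM GenX, and 10th and 5th under 100 µM GenX.

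Had the 10 µM libraries held the share seen in control 1, NDRG1 would have had 167 counts in replicate 1 and 77.7 in replicate 2, and with the share of control 2 it would have had 414 and 193. The pooled share was 31.4-fold higher in the controls than at 10 µM (95% counting interval 17.0 to 65.6), 24.5-fold in control 1 alone and 60.7-fold in control 2 alone. The fitted log2 fold change at 10 µM against control was -6.39 ± 0.77 (SE, n = 2 per group), between -7.41 (without 10 µM replicate 2) and -6.34 when any 1 of the 4 libraries was left out. At 100 against 10 µM it was 5.99 ± 0.76. These values involve the libraries that led to the choice of NDRG1, so they carry no p-value. At 100 µM against control the log2 value was -0.40 ± 0.60 (SE). This comparison shares its control libraries with the choice of NDRG1, so it too carries no p-value. The sign of the log2 value changed under several alternatives, among them library sizes as the only scaling (0.088), leaving out control 2 (0.22) and leaving out 100 µM replicate 1 (0.41). The 100 µM mean of 1.21% ± 0.357 (SD, n = 2) differed from the control mean of 1.19% ± 0.713 by less than the spread of either group.

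**Figure D1:**
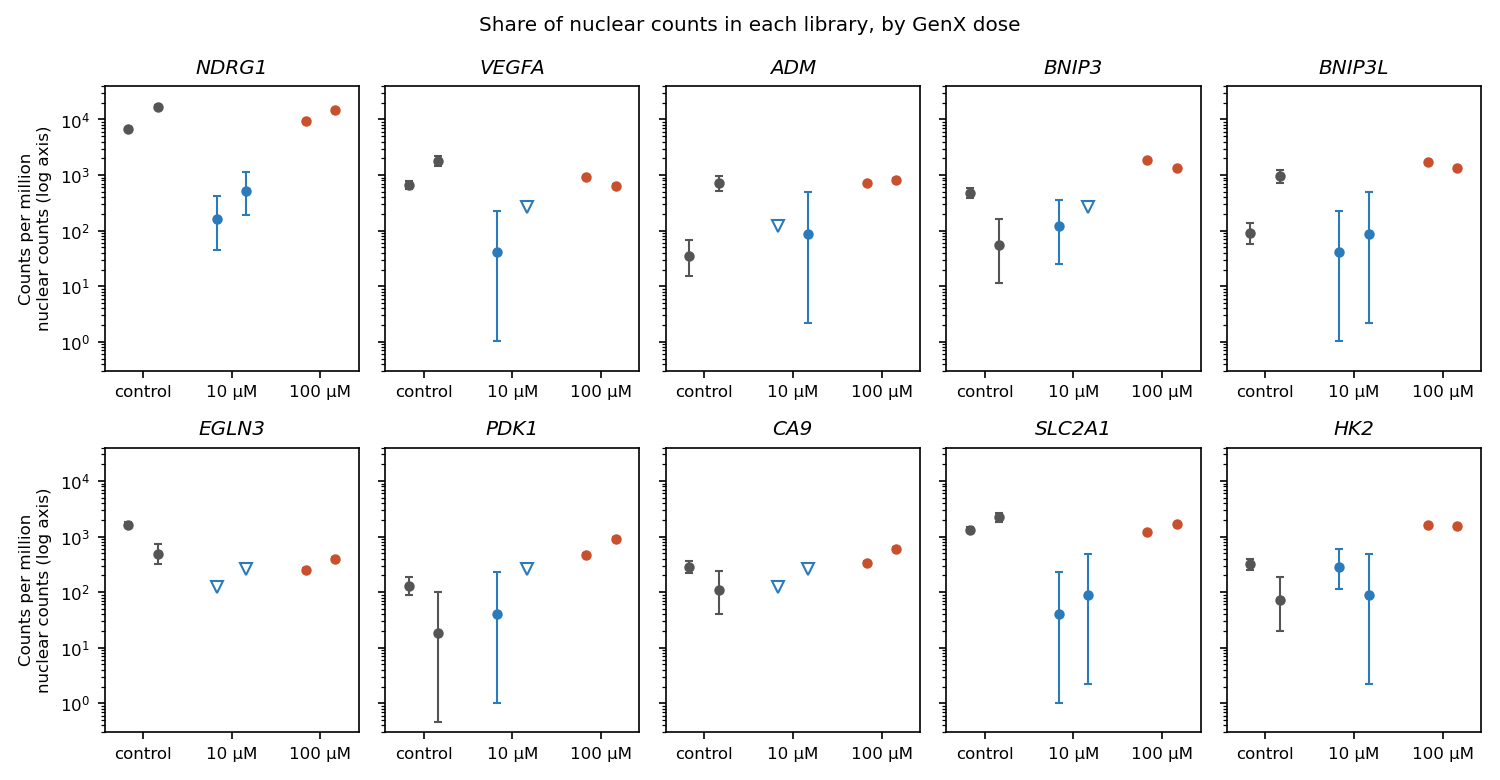
Nuclear CPM (log axis) of each gene in each of the 6 libraries, replicate 1 to the left in each group; bars are exact 95% binomial intervals, and open triangles mark libraries with 0 counts, placed at the level of 3 counts. NDRG1 at 10 µM (163 and 526 nuclear CPM) lies below all other libraries, and HK2 at 10 µM (286 and 87.7) lies within the range of the controls.

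The secreted signals were VEGFA, which drives blood vessel growth, and ADM, the precursor of the vasodilator peptide adrenomedullin. VEGFA had 665 and 1816 nuclear CPM under DMSO, 40.8 and 0 under 10 µM GenX (1 and 0 counts), and 934 and 633 under 100 µM GenX. The 10 µM libraries were below both controls, with a control to 10 µM ratio of 31.8 (5.65 to 1260), and the 100 µM libraries overlapped the controls. ADM had 34.8 and 716 nuclear CPM under DMSO, 0 and 87.7 under 10 µM GenX (0 and 1 counts), and 717 and 825 under 100 µM GenX. Its controls differed 20.6-fold (9.49 to 51.0), so that the 100 µM share was 21.8 times that of control 1 and 1.06 times that of control 2.

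BNIP3 and BNIP3L, paired receptors of the outer mitochondrial membrane that mark mitochondria for autophagy, were high at 100 µM and disagreed within the controls. BNIP3 had 478 and 55.0 nuclear CPM under DMSO, 122 and 0 under 10 µM GenX (3 and 0 counts), and 1892 and 1342 under 100 µM GenX. BNIP3L had 91.2 and 954, then 40.8 and 87.7 (1 count each), then 1721 and 1335. Each gene thus had its high control where the other had its low one, and both 100 µM libraries stood above both controls for both genes. Control 2 was 10.5-fold above control 1 for BNIP3L (6.19 to 18.3), and control 1 was 8.68-fold above control 2 for BNIP3 (2.89 to 42.7). BNIP3L shares 7.66% of its exon bases with PNMA2 and 1.30% with the pseudogene SDAD1P1, both on the opposite strand. SDAD1P1 held 83 and 6 counts with DMSO, 0 and 1 with 10 µM GenX and 1016 and 657 with 100 µM GenX, which in control 1 exceeds the 21 counts of BNIP3L. Since the strand setting of the counting was not given, reads there cannot be assigned with certainty.

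Of the metabolic genes, only SLC2A1 had both 10 µM libraries below both controls, and counts of the others were too few to say that they differ from it. SLC2A1, the glucose transporter GLUT1, had 1338 and 2220 nuclear CPM under DMSO, 40.8 and 87.7 under 10 µM GenX (1 count each), and 1198 and 1689 under 100 µM GenX. Both 10 µM libraries lay far below the controls, at a control to 10 µM ratio of 27.1 (7.44 to 224), and the 100 µM libraries overlapped them. HK2, the hexokinase that docks on mitochondria, had 317 and 73.4 under DMSO, 286 and 87.7 under 10 µM GenX (7 and 1 counts), and 1589 and 1558 under 100 µM GenX. Its 10 µM libraries lay inside the range of the controls, with a pooled 10 µM to control ratio of 0.824 (0.343 to 1.71). At the control 1 share, 7.77 counts would have stood in 10 µM replicate 1, where 7 were found. PDK1, the kinase that shuts off pyruvate dehydrogenase, had 130 and 18.3 under DMSO, 40.8 and 0 under 10 µM GenX (1 and 0 counts), and 470 and 920 under 100 µM GenX. Between 0.209 and 3.19 counts of PDK1 would have stood in a 10 µM library at the control shares, so a difference there was not detectable at this depth.

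EGLN3 and CA9 had 0 counts in both 10 µM libraries. EGLN3 had 1642 and 495 nuclear CPM under DMSO and 248 and 400 under 100 µM GenX, which made it the only one of the 10 with both 100 µM libraries below both controls. It was at least 17.0-fold lower at 10 µM over the pooled groups, and at least 5.93-fold against control 2 alone, with 3 counts taken as the limit over the pooled 10 µM libraries. CA9 had 282 and 110 nuclear CPM under DMSO and 335 and 601 under 100 µM GenX. With 3 counts over the pooled 10 µM libraries as the limit, CA9 was at least 2.99-fold lower there than in the pooled controls. In a single 10 µM library, 0 counts allow 122 and 263 nuclear CPM, above the level of control 2, so neither library can be placed below that control. Of the exon bases of CA9, 38.5% are shared with ARHGEF39 on the opposite strand, which itself held at most 21 counts in any library.

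**Figure D2:**
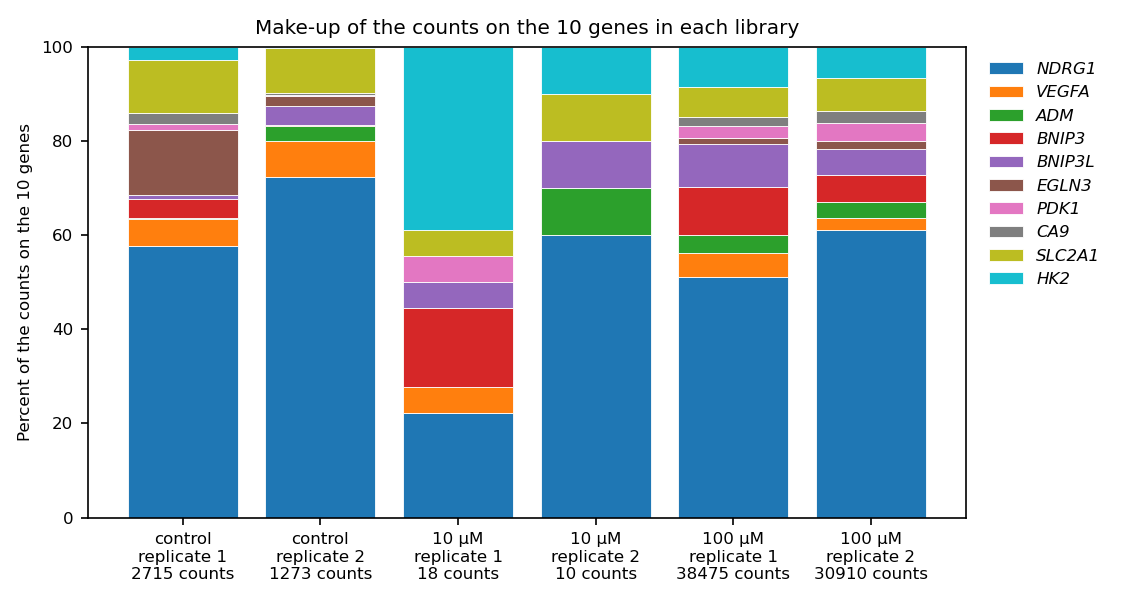
Percent of the counts on the 10 genes that each gene took, as stacked bars per library with the number of counts below. NDRG1 took 57.8% and 72.3% under DMSO and 51.1% and 61.1% under 100 µM GenX, and the 10 µM bars rest on 18 and 10 counts.

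Together the 10 genes took 1.18% and 2.34% of nuclear counts under DMSO, 0.0735% and 0.0877% under 10 µM GenX, and 1.86% and 2.39% under 100 µM GenX. Without NDRG1 the other 9 took 0.498% and 0.646%, then 0.0571% and 0.0351%, then 0.910% and 0.930%. HK2 took 38.9% of the 18 counts in 10 µM replicate 1 (17.3 to 64.3), where its part was 2.69% and 0.314% under DMSO and 8.53% and 6.52% under 100 µM GenX. EGLN3 took 13.9% of the counts on the 10 genes in control 1 and 2.12% in control 2. At 100 µM BNIP3 took 10.2% in replicate 1 and 5.62% in replicate 2, and BNIP3L took 9.23% and 5.59%.

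Levels of different genes were ordered per kilobase of exon. At 100 µM, NDRG1 led with 1228 ± 364 nuclear CPM per kilobase (SD, n = 2), and BNIP3L (355 ± 63.3), BNIP3 (304 ± 73.0), SLC2A1 (293 ± 70.4), ADM (284 ± 28.0), CA9 (280 ± 113) and HK2 (260 ± 3.64) followed. Neighbours among these 6 did not differ beyond their spread. VEGFA (54.3 ± 14.8), PDK1 (46.7 ± 21.4) and EGLN3 (44.0 ± 14.7) came last and also overlapped each other, below HK2 by more than the spread. In the controls NDRG1 (1207 ± 726) and SLC2A1 (361 ± 127) led, and the next 4, EGLN3 (145 ± 110), ADM (138 ± 177), BNIP3L (121 ± 142) and CA9 (117 ± 72.9), overlapped. VEGFA (86.0 ± 56.4), BNIP3 (50.03 ± 56.1), HK2 (32.2 ± 28.4) and PDK1 (4.99 ± 5.32) followed.

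The 3 comparisons share libraries, so each is given on its own values. All 10 genes passed the filter on low counts and were among the 3180 genes tested. The filter keeps a gene that reaches a set CPM in any 2 libraries. Except for NDRG1, none of the 10 reached it in both 10 µM libraries, so their entry needed libraries of other groups. Low values at 10 µM were thus favoured in advance, and 1286 of the tested genes had 0 counts there. At 10 µM against control all 10 fitted values lay below 0, where 27.3% of all tested genes lay above 0, and 6 had an unadjusted p under 0.05, where 28.1% of tested genes did. Of the 10 genes 1 was called, NDRG1, through which the genes were chosen, where 0.597% of all tested genes were called. In 5 of the 10 (NDRG1, VEGFA, SLC2A1, BNIP3L and EGLN3) both 10 µM libraries lay below both controls with 0 counts set to 3 in each 10 µM library, where 7.92% of tested genes did so. Only 0 counts were raised. For BNIP3L the place rests on 1 count in 10 µM replicate 2, 87.7 nuclear CPM beside 91.2 in control 1. At the control 1 share 1.04 counts would have stood there, so a difference from that control was not detectable. With 0 counts taken as listed CA9 joined these 5, where 31.7% of tested genes did so. The median log2 fold change was -5.28, or -4.08 with EGLN3 and CA9 at their bound, beside -3.18 for all tested genes, or -0.014 with 1426 genes at 0 in a group at their bound. Since the choice used this comparison, nothing is read from these counts. Without control 1, 6 of the 10 and 12.5% of all tested genes were called, and without control 2, 7 of the 10 and 12.5% were.

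At 100 µM against control, edgeR's quasi-likelihood test called 0 of the 10 genes and 0% of all those tested. Of the 10, 0 had an unadjusted p under 0.05, where 18% of tested genes did, and DESeq2's Wald test called 0, where it called 7.67% of tested genes. The values were 2.39 ± 1.62 for PDK1 (SE, adjusted p = 0.441), 2.24 ± 1.36 for HK2 (0.398), 1.78 ± 1.48 for BNIP3 (0.530), 1.28 ± 1.25 for BNIP3L (0.599), 0.81 ± 1.54 for ADM (0.810) and 0.54 ± 1.48 for CA9 (0.866). In each of these 6 genes both 100 µM libraries lay above both controls, where 47.8% of tested genes did so. Of these, ADM and PDK1 passed the filter only through the 100 µM libraries, so their place above the controls was partly set in advance. EGLN3, with -2.45 ± 1.34 (adjusted p = 0.355), had both libraries below both controls, as 10.4% of tested genes did. SLC2A1 (-0.79 ± 0.97, adjusted p = 0.686) and VEGFA (-1.08 ± 1.16, 0.638) overlapped the controls. The median over the 10 was 0.67, beside 0.35 for all tested genes. Leaving out a control changed calls: without control 1, HK2 (4.78, adjusted p = 0.0461) and BNIP3 (5.24, 0.0498) passed as higher, and without control 2, EGLN3 passed as lower (-2.95, 0.0445). All tested genes were called more often in these fits too, 3.57% without control 1 (0.900% higher) and 2.97% without control 2 (2.52% lower). In such a fit the remaining control is assumed to vary like the other groups.

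At 100 against 10 µM, 9 of the 10 genes had both 100 µM libraries above both 10 µM libraries with 0 counts set to 3, where 21.9% of tested genes did so. EGLN3 was the exception, since 248 nuclear CPM in 100 µM replicate 1 lies under the 263 that 0 counts allow in 10 µM replicate 2. With 0 counts taken as listed all 10 did, where 63.1% of tested genes did so and 8.65% had both below. All 10 fitted values lay above 0, where 78.5% of tested genes did. The 9 genes other than NDRG1 passed the filter only with libraries outside the 10 µM group. Their direction was thus largely set in advance, and nothing is read from it or from the counts of calls. NDRG1 was called, where 2.86% of tested genes were (0.755% higher and 2.11% lower), and it is described above without a test. Of the other 9, 0 passed in edgeR's quasi-likelihood test, 9 had an unadjusted p under 0.05, where 36.2% of tested genes did, and DESeq2's Wald test called 4 (SLC2A1, VEGFA, BNIP3L and CA9), where it called 12% of tested genes (5.19% higher). The nearest to the threshold was SLC2A1 with 5.28 ± 1.27 (SE, adjusted p = 0.0536). VEGFA had 5.44 ± 1.60 (0.0986), BNIP3L 5.35 ± 1.60 (0.104), ADM 5.31 ± 2.08 (0.130), PDK1 5.28 ± 2.08 (0.130), BNIP3 4.95 ± 1.80 (0.130) and HK2 3.51 ± 1.49 (0.131). Against the pooled 10 µM libraries, EGLN3 was at least 3.67-fold and CA9 at least 5.24-fold higher at 100 µM. HK2 had the smallest pooled ratio with counts in both groups, 7.08 (3.59 to 16.4), beside 41.2 (22.4 to 86.0) for NDRG1. The median of the 10 was 5.33, or 5.28 with EGLN3 and CA9 at their bound, beside 3.52 for all tested genes, or 0.81 with bounds. With other scalings the median of all tested genes was 2.54 (DESeq2 size factors) or 3.66 (library sizes only).

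**Figure D3:**
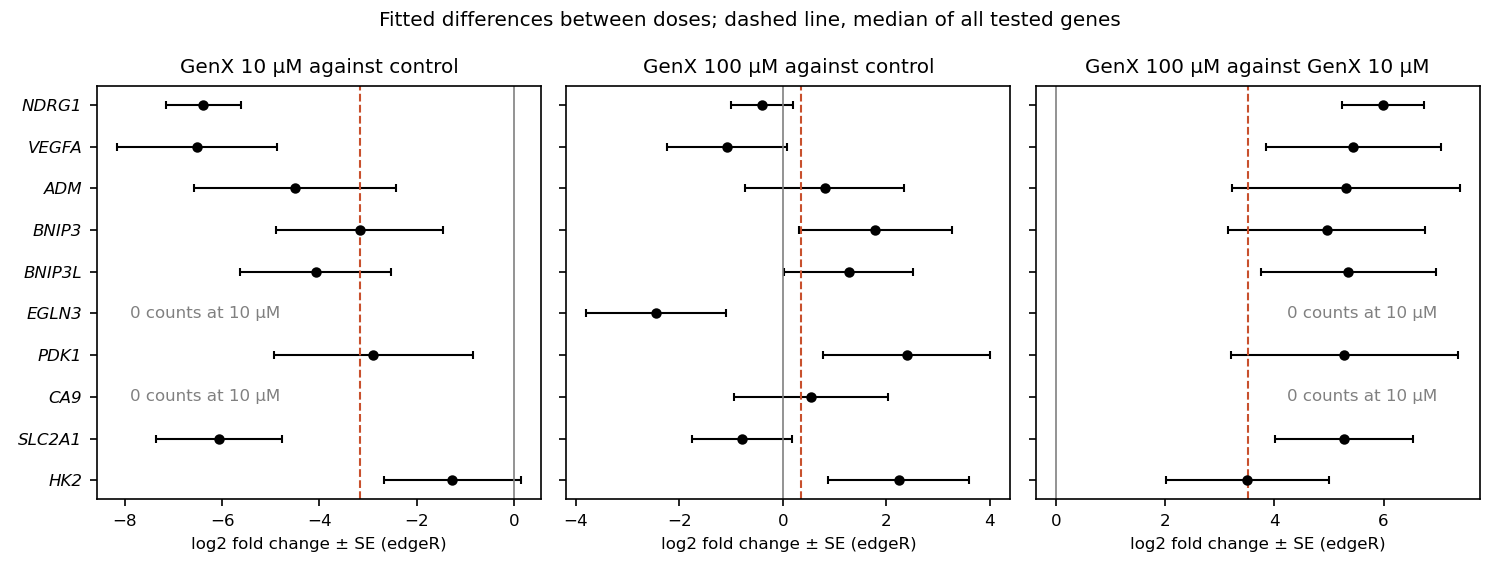
Fitted log2 fold change of each gene with its SE from edgeR in the 3 comparisons; the dashed line is the median of all tested genes (-3.18, 0.35 and 3.52), and genes with 0 counts at 10 µM have no point where that group enters. NDRG1 has the smallest SE in each panel (0.60 to 0.77), and HK2 lies nearest to 0 in both comparisons with the 10 µM group.

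The 2 controls differed by several fold for most of the 10 genes, as tested nuclear genes in general did. Control 2 stood above control 1 for 5 of them (ADM, BNIP3L, VEGFA, NDRG1 and SLC2A1, by 20.6 down to 1.66-fold) and below it for the other 5. Control 1 was 3.31-fold above control 2 for EGLN3 (2.24 to 5.10), 4.32-fold for HK2 (1.62 to 16.3), 7.10-fold for PDK1 (1.18 to 290) and 2.56-fold for CA9 (1.12 to 7.24). With 0.5 added to each count, the median distance between the controls was 3.55-fold for the 10 genes, beside 5.19-fold for 1500 tested nuclear genes with at least 20 counts over both libraries. At 100 µM the replicates were at most 1.96-fold apart, for PDK1, with a median of 1.44-fold for the 10 genes and 1.49-fold for 3006 nuclear genes. HK2 had a ratio of 0.980 (0.927 to 1.04) between these 2 libraries.

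**Figure D4:**
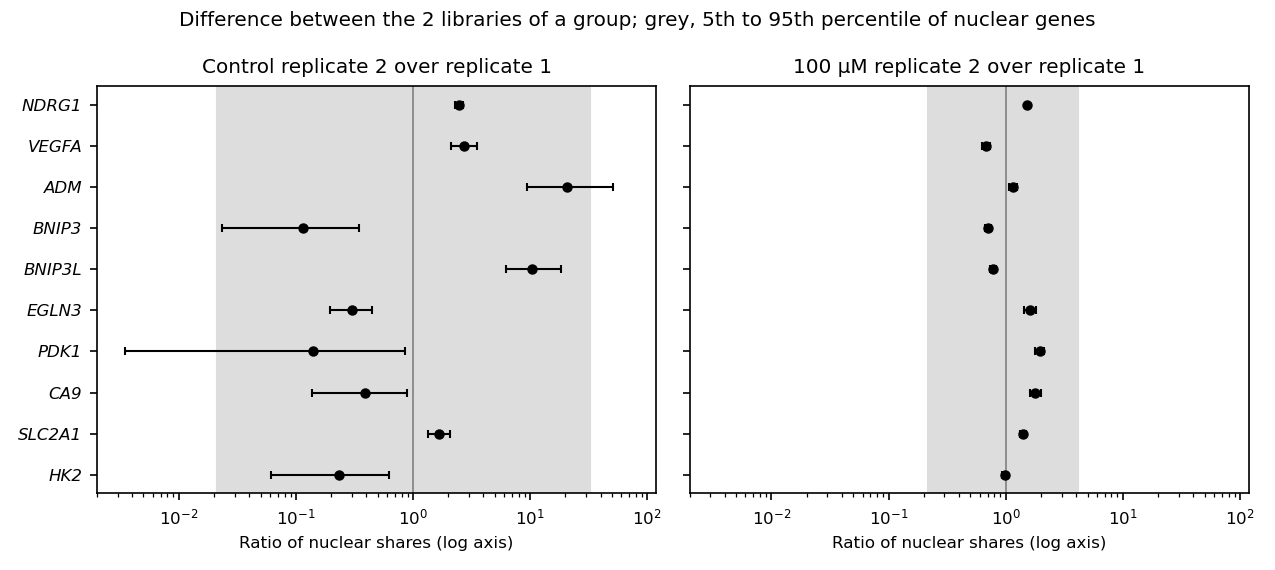
Ratio of the nuclear shares of replicate 2 to replicate 1 (log axis) for each gene in the controls and at 100 µM, with exact 95% counting intervals; the grey band spans the 5th to 95th percentile of tested nuclear genes. The control ratios run from 0.115 for BNIP3 to 20.6 for ADM, and those at 100 µM from 0.677 for VEGFA to 1.96 for PDK1.

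Among 3040 tested protein-coding nuclear genes outside the 10, the 5 with the profile nearest to that of NDRG1 over the 6 libraries were IL32, PICALM, ANGPTL4, CKB and MDK. Nearness was the Euclidean distance between centred log2 CPM profiles, from 0.852 for IL32 to 0.992 for MDK, with Pearson's r over the 6 libraries between 0.991 and 0.996. All these points share their libraries and depths, and the values are a description. ANGPTL4, a secreted inhibitor of lipoprotein lipase that is also a hypoxia target, had 847 and 2238 nuclear CPM under DMSO, 40.8 and 87.7 under 10 µM GenX (1 count each), and 1891 and 2005 under 100 µM GenX. It was the nearest of all when profiles were taken on nuclear shares (distance 0.933), where it was the only one of the 5 to stay in the first 5. IL32, PICALM, CKB and MDK had 0 counts at 10 µM and between 12 and 38 in each control, so their profiles rest on the floor there. MDK, a secreted growth factor, had 165 and 404 nuclear CPM under DMSO and 313 and 360 under 100 µM GenX.

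**Figure D5:**
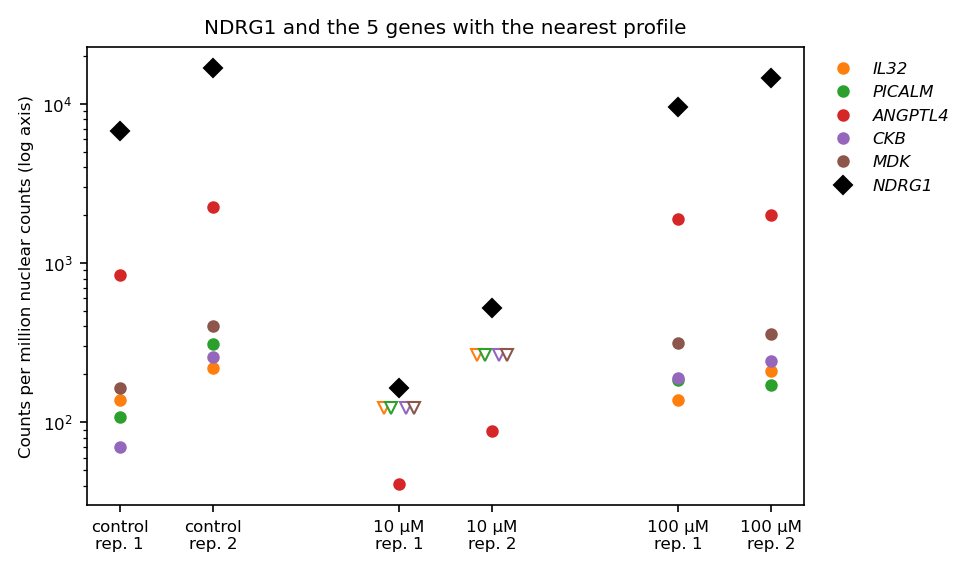
Nuclear CPM (log axis) of NDRG1 and the 5 genes nearest to it in each library; open triangles mark 0 counts, placed at the level of 3 counts. ANGPTL4 had a count in every library and lay lowest at 10 µM (40.8 and 87.7), as NDRG1 did (163 and 526).

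The wider hypoxia pathway was read from lists. Of 14 components of the HIF system itself, 8 were tested and 0 passed in any comparison in edgeR's quasi-likelihood test. At an unadjusted p under 0.05 there were 2 at 10 µM against control, 3 at 100 µM against control and 4 at 100 against 10 µM, beside 28.1%, 18% and 36.2% of all tested genes. DESeq2's Wald test called ELOB as lower in the first of these, ELOC as higher in the second, and ELOC and EPAS1 as higher in the third, where it called 12.1% of tested genes lower, 1.92% higher and 5.19% higher. ELOC and EPAS1 passed the filter on low counts only with the 100 µM libraries, and ELOB only with libraries outside the 10 µM group. The directions of these calls were thus partly set in advance, and nothing is read from them. EPAS1, the α subunit HIF-2α, had 51 and 4 counts under DMSO, 0 and 0 under 10 µM GenX, and 844 and 713 under 100 µM GenX. ELOC and ELOB, the elongin subunits of the ubiquitin ligase that destroys HIF, had 2 and 1, then 1 and 0, then 1546 and 1128 counts, and 69 and 7, then 0 and 0, then 335 and 234. HIF1A had 8 and 1 counts under DMSO, 0 and 3 under 10 µM GenX, and 162 and 127 under 100 µM GenX. The list's median log2 value was 0.17 at 10 µM against control (0.38 with bounds), 2.70 at 100 µM against control and 4.24 at 100 against 10 µM (1.76 with bounds). For all tested genes it was -3.18, 0.35 and 3.52, or -0.014, 0.29 and 0.81 with bounds. Except for ELOB, the tested components passed the filter on low counts only with the 100 µM libraries. High values at 100 µM were thus favoured in advance, and nothing is read from the list's medians.

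Of 37 further genes known to be induced by hypoxia, 29 were tested. Against control, 0 passed at either dose in edgeR's quasi-likelihood test, while 18 at 10 µM and 5 at 100 µM had an unadjusted p under 0.05, beside 28.1% and 18% of all tested genes. DESeq2's Wald test called 11 as lower at 10 µM, among them ANGPTL4, ERO1A and SLC2A3, and 2 as higher and 1 as lower at 100 µM. Of all tested genes it called 12.1% as lower at 10 µM, and 1.92% as higher and 5.75% as lower at 100 µM. The 2 called as higher passed the filter on low counts only through the 100 µM libraries. Those called as lower at 10 µM passed it only with libraries outside that group. These directions were thus partly set in advance, and nothing is read from the calls. The list's median was -5.63 at 10 µM (-2.07 with 11 members at their bound) and 0.29 at 100 µM. For all tested genes it was -3.18 (-0.014 with bounds) and 0.35. At 100 against 10 µM edgeR's quasi-likelihood test called 1 as higher, ANGPTL4 (5.71 ± 1.29, adjusted p = 0.0408), and 0 as lower, beside 0.755% and 2.11% of all tested genes. An unadjusted p under 0.05 was found for 23, beside 36.2% of all tested genes. DESeq2's Wald test called 6 as higher, beside 5.19%. ANGPTL4 and the other genes called here passed the filter on low counts only with libraries outside the 10 µM group. Their direction was thus largely set in advance, and nothing is read from it. The list's median was 6.22 (3.98 with bounds), beside 3.52 (0.81 with bounds) for all tested genes. ERO1A, an oxidase of the endoplasmic reticulum, had 2235 counts in control 1 and 4 in control 2, then 1 and 0, then 2437 and 1395. SLC2A3, the glucose transporter GLUT3, had 419 and 151, then 0 and 4, then 3058 and 1977 counts. The list's summed share was 2.54% and 2.05% of nuclear counts under DMSO, 0.0898% and 0.193% under 10 µM GenX, and 2.61% and 2.49% under 100 µM GenX.

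Of 15 glycolytic enzyme genes, which HIF also induces, 13 were tested. In edgeR's quasi-likelihood test 2 were higher at 100 than at 10 µM, ENO1 (5.56 ± 1.08, adjusted p = 0.0304) and LDHA (5.197 ± 1.13, adjusted p = 0.0408), beside 0.755% of all tested genes. Against control 0 passed at either dose in that test. At 100 against 10 µM 9 had an unadjusted p under 0.05, beside 36.2% of all tested genes. DESeq2's Wald test called 4 as higher there, beside 5.19%. Against control, 9 had an unadjusted p under 0.05 at 10 µM and 1 at 100 µM, and DESeq2's Wald test called 9 as lower and 0, respectively. The same rules took 28.1% and 18% of all tested genes for the unadjusted p, and 12.1% as lower at 10 µM and 7.67% in either direction at 100 µM for the Wald test. Some of the glycolytic genes that the Wald test called passed the filter on low counts only with libraries outside the 10 µM group. Their direction was thus partly set in advance. ENO1 had 238 and 106 counts under DMSO, 3 and 2 under 10 µM GenX, and 9322 and 5334 under 100 µM GenX, so that the 10 µM libraries again were the lowest. Of the NDRG family, NDRG1 stood alone in level. NDRG2 had at most 12 counts in any library, NDRG3 had 0 and 0, then 0 and 1, then 145 and 119, and NDRG4 3 and 0, then 0 and 3, then 429 and 154. NDRG3 (adjusted p = 0.212) and NDRG4 (0.320) did not pass at 100 µM against control.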

How the data were processed

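The authors deposited 1 table per library, in the column layout of featureCounts, with raw counts of reads on each gene. The submitters' processing notes list STAR, FastQC, DESeq2 and featureCounts, and GRCh38 as the build. Not given in the sources used here were versions, the annotation release, the strand setting and how reads that overlap genes or map to several places were handled. Each table listed 57500 genes, with 0 lines that named no gene and 0 columns without a sample. Exon lengths and positions came from the tables, symbols from a table of gene names, gene types from GENCODE release 29 and promoter sequences from RefSeq. Positions were given for genes whose promoters are shown.

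Library totals ran from 29350 to 2141282 counts. The test was edgeR 4.0.16 in R 4.3.3 on raw counts, with filterByExpr (3180 genes kept), TMM scaling, and robust quasi-likelihood fits in 1 model with a mean per group over the 6 libraries. Two-sided p-values were adjusted over every tested gene (Benjamini-Hochberg), and the threshold was 0.05. Ratios of pooled counts carry exact 95% conditional binomial intervals, and a group at 0 was set to 3 counts over its pooled nuclear total. Shares and intervals were computed in scipy 1.17.1. Likeness to NDRG1 used log2 CPM with a prior count of 2. The members and lists were chosen with earlier results of these data known. All 10 members are named. Of each wider list, up to 3 members that passed are named by smallest p, or else the 3 tested with the highest mean nuclear share; HIF1A, NDRG2 and, in the closing section, PDK2 to PDK4 were named in addition, after their values were seen. A gene that this rule selects is not reported here. Alternatives were DESeq2 size factors, library sizes only, TMM without mtDNA genes, DESeq2 1.42.0 on the same genes, no filter, a mean of at least 5 CPM, the 4 libraries compared alone, a replicate block, and leaving out each library. Leaving out MALAT1 and NEAT1 was added after seeing the data. The scripts were tested on simulated data.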

Additional observations from a re-analysis of the deposited data

How the results depend on the processing

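The number of the 10 genes called was 1, 0 and 1 in the 3 comparisons, and is given below with the share of all tested genes called in the same fit. At 10 µM against control it was 5 in DESeq2's Wald test (17.4% of all tested genes), 3 with a mean of at least 5 CPM (0.795%), 4 with the 4 libraries compared alone, where 4 of the 10 were tested and 45% of 458 genes were called, and between 1 and 7 without a library (between 4 and 861 of all tested genes). At 100 µM against control it was between 0 and 2 without a library (between 0 and 204 of all tested genes). At 100 against 10 µM it was 2 with library sizes only (4.03%), 5 in DESeq2's Wald test (12%), 6 with a mean of at least 5 CPM (2.43%) and 5 with the 4 libraries alone (4.44%). The cause of these moves was not tested. Replicate numbers gave no sign of pairing, since the differences between replicates correlated at 0.0032, 0.00033 and -0.022 between groups over 3180 genes, and with the replicate number as a block 3, 0 and 2 of the 10 were called (2.36%, 0.692% and 4.28% of all tested genes). Values that changed sign at 100 µM against control were NDRG1 (0.088 with library sizes only, 0.34 without a filter, 0.68 with a mean of at least 5 CPM, and -0.14 to 0.41 without a library), VEGFA (0.046) and SLC2A1 (0.26), both with a mean of at least 5 CPM. HK2 at 10 µM against control ran from -3.44 to 0.56 without a library. The called genes among all tested numbered 19, 0 and 91, and 554, 244 and 383 in DESeq2's Wald test. Their split at 10 µM against control was 7 higher and 12 lower, 8 and 7 with DESeq2 size factors, and 0 and 7 with library sizes only. At 100 against 10 µM it was 24 higher and 67 lower, and 6 and 73 with DESeq2 size factors. Of the 5 genes nearest to NDRG1, 1 was shared with the profiles on nuclear shares. Depth limited the 10 µM group most, where the 10 genes held 18 and 10 counts in all.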

Other observations

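Around the mitophagy receptors and PDK1, most partner genes were thinly counted outside the 100 µM libraries. Of 13 genes of mitophagy and the outer mitochondrial membrane, 7 were tested and 0 passed in any comparison in edgeR's quasi-likelihood test. At an unadjusted p under 0.05 there were 1 at 10 µM against control and 2 in each of the other comparisons, beside 28.1%, 18% and 36.2% of all tested genes. DESeq2's Wald test called PHB2 as lower at 10 µM and MAP1LC3B as higher at 100 µM, both against control, where it called 12.1% of tested genes as lower and 1.92% as higher. MAP1LC3B, which encodes an LC3 protein of autophagosomes that mitophagy receptors bind, had 3 and 5 counts under DMSO, 0 and 3 under 10 µM GenX, and 2955 and 2019 under 100 µM GenX (log2 fold change 4.61 ± 1.71 at 100 µM against control, SE, n = 2 per group, adjusted p = 0.218). SQSTM1, an autophagy receptor, had 93 and 5, then 1 and 1, then 778 and 230 counts. PHB2, an inner membrane prohibitin, had 4 and 111, then 0 and 0, then 138 and 94 counts, and its 100 µM libraries lay between the controls as shares of nuclear counts. PHB2 passed the filter on low counts only with libraries outside the 10 µM group, so a low value there was favoured in advance.

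Of the 11 genes of the pyruvate dehydrogenase complex and its other kinases and phosphatases, 0 passed the filter on low counts. They took 0.0143% and 0.00550% of nuclear counts under DMSO, 0.0286% and 0.0438% under 10 µM GenX, and 0.0221% and 0.0119% under 100 µM GenX, so their sum was not lowest at 10 µM. The 10 µM values rest on 7 and 5 counts. The kinases PDK2, PDK3 and PDK4 had at most 13, 4 and 4 counts in any library.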
